A study of Oryza sativa Japonica Group with 31 samples.

Results

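Alternative oxidases (AOX) are enzymes of the inner mitochondrial membrane, encoded in the nucleus, that pass electrons from ubiquinol straight to oxygen. This route bypasses complexes III and IV of the respiratory chain and pumps no protons, so that electrons flow without the full yield of ATP. In plants the pathway is known for limiting over-reduction of the electron transport chain, AOX1a of Arabidopsis is a widely used reporter of mitochondrial stress signalling, and AOX transcripts have long been studied in chilled rice.

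The 4 rice loci described here were chosen by identifier and not by a rule on their values, but with earlier results of these data known. All 4 were among the 55801 loci of the expression table. They are LOC_Os04g51150 (AOX1a) and LOC_Os04g51160 (AOX1b), consecutive loci on chromosome 4, and LOC_Os02g47200 (AOX1c) and LOC_Os02g21300 (AOX1d), both on chromosome 2. The table pairs no identifier with a gene name. The names are those given with the list of identifiers, which also carry the chromosome number. A RefSeq gene table of another assembly, ASM3414082v1, holds none of the 4 identifiers and lists a gene named AOX1a, which lies on chromosome 4.

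The series asks how R-loops, hybrids of RNA and DNA that leave the second DNA strand unpaired, bear on transcription in cold-treated rice, and the values used here are its RNA-seq values. Leaf of Nipponbare, a japonica cultivar, was taken from control seedlings kept at a mean of 28 °C in the light and 22 °C in the dark and from seedlings moved to 4 °C on day 13 for 24 h. Day 13 is listed for both groups, which does not tell whether control and cold leaf were harvested at the same age. Both groups were grown in liquid medium under the same light and dark cycle, and the labels name no mutant or transgene in either. Each treatment has 2 RNA-seq libraries, called biological replicates, but the deposited table holds 1 column of FPKM (fragment counts divided by locus length and by the number of mapped fragments) for control and 1 for cold, and the sources used here do not say how 2 libraries became 1 column. Each value is therefore the authors' value for a treatment. It has no replicate error, no test or p-value is given, and whether a difference exceeds the spread between seedlings cannot be said from these values. The read depth of a column is unknown. All loci summed to 584870 FPKM in the control column and 554475 FPKM in the cold column. Because no identifier is tied to a gene name, the leaf label was not checked against marker genes. In whole leaf, fewer cells of a type and less RNA per cell cannot be told apart.

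AOX1a, AOX1b and AOX1d were each listed more than 10-fold higher in FPKM after cold, while AOX1c was listed 4.24-fold lower. The ratio of AOX1d rests on a weak control value of 0.467 FPKM. AOX1c gave the highest of the 4 levels in control, and in cold it stood beside AOX1d below the other two. AOX1a and AOX1b together held 39.5% of the summed AOX level in control and 95.6% in cold.

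AOX1a, the member whose Arabidopsis namesake is the stress-responsive reporter, was listed at 11.4 FPKM in control leaf and 174 FPKM after cold, a ratio of 15.3. On the log2(FPKM + 1) scale, on which weak loci differ less than their ratio says, this was a difference of 3.82. It stood at place 9218 of 55801 loci by control level and at place 410 by cold level. AOX1b, the locus that follows AOX1a on chromosome 4, stood at 3.05 FPKM in control leaf and 54.6 FPKM after cold, a ratio of 17.9 and a log2(FPKM + 1) difference of 3.78. Its place moved from 16686 by control level to 1942 by cold level. AOX1a was thus the more abundant of the pair in both treatments, 3.72-fold above AOX1b in control and 3.18-fold in cold. Which of the pair differed more depended on the scale. AOX1b had the larger FPKM ratio, and AOX1a had the larger difference once 1 FPKM was added to every value. The handling of reads that fit several loci is not given, so a split of reads between these 2 related loci cannot be traced. Summed over both, the level was 14.4 FPKM in control leaf and 228 FPKM after cold, a ratio of 15.9.

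AOX1d was the weakest member in control, at 0.467 FPKM, and was listed at 5.38 FPKM in cold, a ratio of 11.5. Its log2(FPKM + 1) difference was 2.12, smaller than its ratio would give because the control value lies under the added 1 FPKM. It stood at place 23201 by control level and 12595 by cold level. Its mean of 2.92 FPKM passed the floor of 1 FPKM through the cold value alone, so a difference in favour of cold came with passing.

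AOX1c went the other way. It was listed at 21.5 FPKM in control leaf and 5.08 FPKM after cold, with a log2(FPKM + 1) difference of −1.89, and its place moved from 5349 by control level to 12864 by cold level. In control AOX1c stood 1.90-fold above AOX1a, 7.07-fold above AOX1b and 46.1-fold above AOX1d. In cold, AOX1a stood 34.2-fold above AOX1c and AOX1b stood 10.7-fold above it.

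The order of levels, in FPKM and so per length, was AOX1c, AOX1a, AOX1b, AOX1d in control and AOX1a, AOX1b, AOX1d, AOX1c in cold. Among AOX1a, AOX1b and AOX1d the order was the same in both treatments, and AOX1c moved from the top to the lower end. The last step in cold was small, with AOX1d 1.06-fold above AOX1c, and without replicate values the order of these 2 cannot be settled. The other steps between neighbours in the order ranged from 1.90-fold to 10.2-fold.

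**Figure D1:**
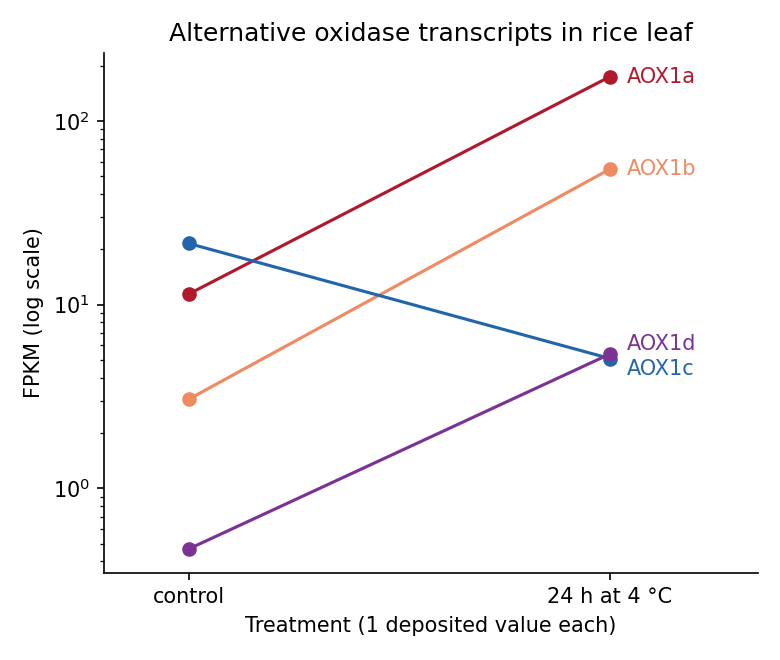
FPKM of the 4 AOX loci (logarithmic vertical axis) in control leaf and in leaf after 24 h at 4 °C; each point is the 1 deposited value of a treatment, without error, and lines join the values of a locus. The lines of AOX1a, AOX1b and AOX1d climb by 15.3-fold, 17.9-fold and 11.5-fold, and the line of AOX1c descends from 21.5 to 5.08 FPKM and crosses all 3.

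The summed level of the 4 loci was 36.4 FPKM in control leaf and 239 FPKM after cold, a ratio of 6.56. This was 0.00623% of all FPKM in control and 0.0431% in cold. The make-up of the sum differed as well, and shares within a column do not change when the whole column is multiplied by a constant. They were not recomputed under quantile normalization, which is not of that kind. AOX1c held 59.2% of the sum in control and 2.13% in cold. AOX1a held 31.2% in control and 72.8% in cold, and AOX1b 8.37% in control and 22.9% in cold. AOX1d held 1.28% in control and 2.25% in cold.

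**Figure D2:**
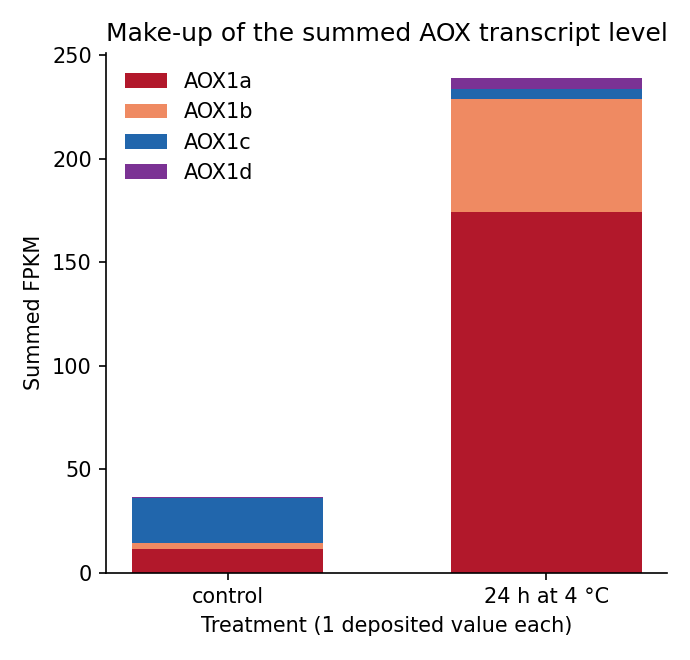
Summed FPKM of the 4 AOX loci in control and cold, stacked by locus on a linear axis that starts at 0; each bar adds the 1 deposited value per locus and has no error. The control bar of 36.4 FPKM is mostly AOX1c, and the cold bar of 239 FPKM is mostly AOX1a with AOX1b above it.

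All 4 members averaged at least 1 FPKM over both columns, as did 20876 loci in all. With a limit of 2-fold on the log2(FPKM + 1) scale, 3 of the 4 members were higher in cold, where 12.5% of the 20876 loci were, and 1 of the 4 was lower, where 19.2% of loci were. AOX1d is 1 of the 3 and passed the floor through its cold value alone, so its place in these counts is no support for a direction. The balance over all loci depended on the scale between the columns. It was 2617 loci higher and 4003 lower as deposited, 3766 higher and 2285 lower with median-of-ratios scaling, and 3097 higher and 2958 lower with quantile normalization, while the direction of each member was the same under these. At 4-fold, AOX1a, AOX1b and, with the caution just given, AOX1d were higher, against 3.86% of loci. At 8-fold, AOX1a and AOX1b were higher, against 1.18% of loci. These counts depended on the pseudocount, since with 5 FPKM added in place of 1 the difference of AOX1d was 0.92, short of 2-fold, and that of AOX1b was 2.89, short of 8-fold. The median log2(FPKM + 1) difference was 2.95 over the 4 members and −0.27 over all 20876 loci. The value of 2.95 is the midpoint between AOX1d (2.12) and AOX1b (3.78), and AOX1c lay at −1.89. It therefore rests in part on AOX1d, so the caution given for AOX1d holds for it and it is no support for a direction.

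Single members were also placed among these loci. A total of 98 loci lay further toward cold than AOX1a, which is 0.469% of those kept, and 103 lay further than AOX1b. For AOX1d the number was 697, or 3.34%. In the other direction, 571 loci (2.74%) lay further toward control than AOX1c. Because the differences of all loci varied with level, each member was set beside loci whose mean FPKM was within 1.5-fold of its own. Further toward cold lay 21 of 1087 such loci for AOX1a (1.93%), 32 of 3675 for AOX1b (0.871%) and 62 of 3734 for AOX1d (1.66%). For AOX1c, 151 of 4704 loci of like level (3.21%) lay further toward control. Each of these shares is counted in the member's own direction only, and that of AOX1d is given as a value, since its direction came with passing the floor.

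**Figure D3:**
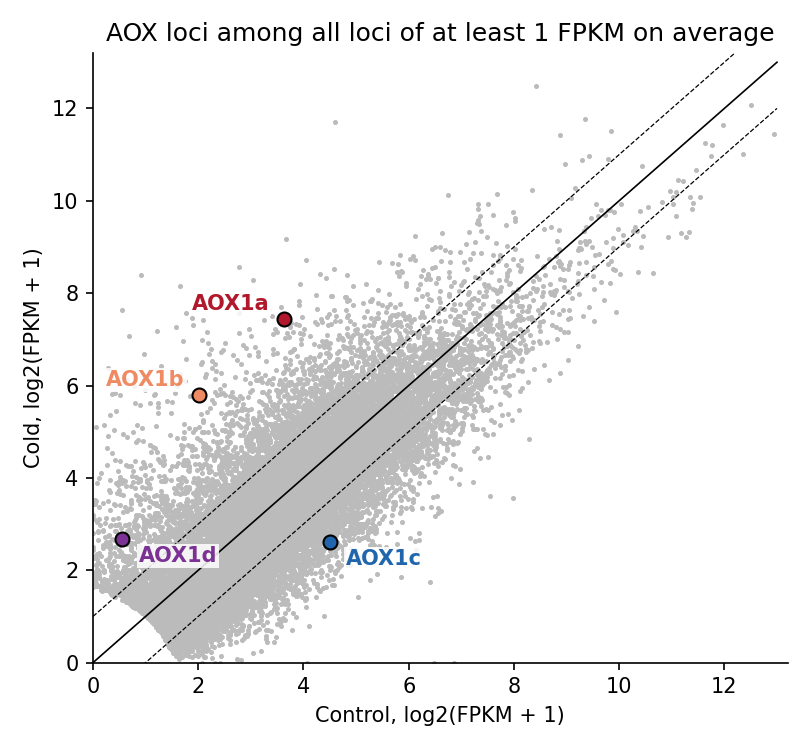
Control against cold level, both as log2(FPKM + 1), for the 20876 loci averaging at least 1 FPKM (grey points, 1 deposited value per treatment) and the 4 AOX loci (coloured); the solid line marks equal levels and the dashed lines 2-fold differences. AOX1a, AOX1b and AOX1d lie above the upper dashed line and AOX1c lies below the lower one.

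The positions of AOX1a and AOX1b side by side allow their neighbourhood to be described. Of the 11825 pairs of consecutive loci in which both averaged at least 1 FPKM, 341 pairs had both loci at least 2-fold higher in cold on the log2(FPKM + 1) scale. There were 50 such pairs at 4-fold and 6 at 8-fold, and AOX1a with AOX1b was 1 of the 6. With 5 FPKM added in place of 1, AOX1b falls short of 8-fold and the pair leaves that class. Adjacent pairs were counted after the values of this pair were known, so the counts describe it and add no support. The loci around the pair did not share differences of this size. The locus before AOX1a was listed at 2.93 FPKM in control leaf and 5.53 FPKM after cold, and the locus after AOX1b at 9.13 FPKM in control leaf and 5.75 FPKM after cold. Among the 5 loci on each side, 9 of 10 averaged at least 1 FPKM, and their log2(FPKM + 1) differences lay between −1.35 and 1.47. Past 2-fold lay 3 of these 9, with 2 higher in cold and 1 lower. Of the 20876 loci, 12.5% passed this limit toward cold and 19.2% toward control. The locus 2 places before AOX1a, among the 2 higher, was listed at 0.642 FPKM in control leaf and 2.81 FPKM after cold. It passed the floor through its cold value alone, so the caution given for AOX1d holds for it. The highest cold level among the 10 was 39.1 FPKM, below both members of the pair.

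AOX1c lay below all of its kept neighbours, and AOX1d lay above all of its own. Around AOX1c, 8 of 10 loci were kept, with log2(FPKM + 1) differences between −1.54 and 0.29, and 2 of them were at least 2-fold lower in cold. The nearest of them to its own difference of −1.89 was a locus 2 places before it, listed at 18.2 FPKM in control leaf and 5.61 FPKM after cold (−1.54). Around AOX1d, 6 of 10 loci were kept, with differences between −1.57 and −0.13, so that none of the 6 was higher in cold. The median difference of the 20876 loci was itself −0.27 as deposited, and 19.2% of them passed 2-fold toward control. Values below 0 near AOX1d or AOX1c are therefore not read as a local feature. The locus just before AOX1d was listed at 0 FPKM in control leaf and 0.0569 FPKM after cold, and the locus just after it at 0.0974 FPKM in control leaf and 0.370 FPKM after cold. The weaker loci around AOX1d, left out by the floor, lay between −0.17 and 0.32. AOX1d itself passed the floor through its cold value alone, so its contrast with the kept loci is given as a value only.

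**Figure D4:**
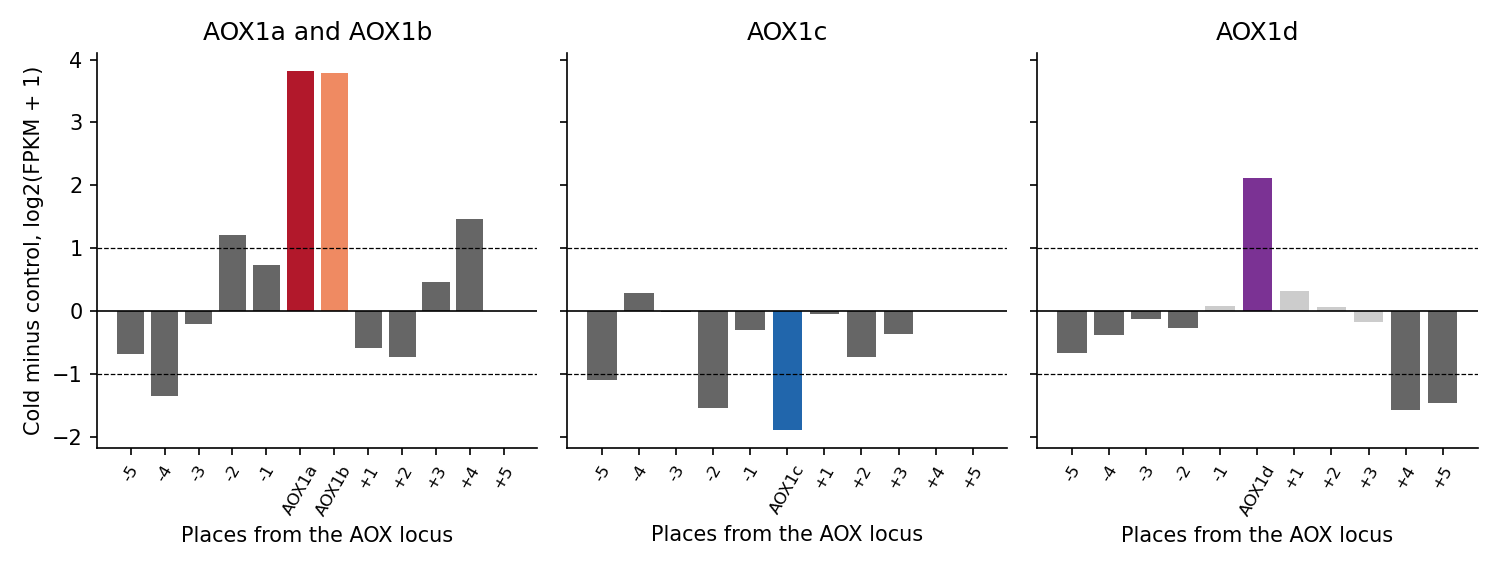
Cold minus control difference of log2(FPKM + 1) for the AOX loci (coloured) and the 5 loci on each side of them in identifier order; dark grey bars are loci averaging at least 1 FPKM, light grey bars are weaker loci, and dashed lines mark 2-fold. AOX1a (3.82) and AOX1b (3.78) stand above neighbours that lie between −1.35 and 1.47. AOX1d (2.12) stands above kept neighbours that all lie below 0 and weaker ones between −0.17 and 0.32. The median of all 20876 loci, −0.27, lies below 0 too. AOX1d passed the floor through its cold value alone, so its direction came with passing.

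The locus most like each member was sought by the distance between pairs of log2(FPKM + 1) values, a measure that rests on only 2 columns. For AOX1a it was LOC_Os02g06480 on chromosome 2, with 11.9 FPKM in control leaf and 177 FPKM after cold, at a distance of 0.0739. For AOX1b it was LOC_Os09g28210 on chromosome 9, at 3.30 FPKM in control leaf and 56.0 FPKM after cold, at a distance of 0.0937. The closest match of AOX1c, LOC_Os01g25500 on chromosome 1, stood at 21.5 FPKM in control leaf and 5.12 FPKM after cold, at a distance of 0.0107. Within a distance of 0.25 there were 4 loci for AOX1a, 2 for AOX1b, 28 for AOX1d and 60 for AOX1c. Fewer loci thus lay this close to AOX1a and AOX1b than to AOX1c and AOX1d. Loci of like mean level numbered 1087 for AOX1a, 3675 for AOX1b, 3734 for AOX1d and 4704 for AOX1c, so AOX1b and AOX1d were near each other in this count. Such counts were not made for other loci, so they are given as values only.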

How the data were processed

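The authors deposited FPKM values in 1 column for control and 1 for cold. HISAT2 2.1.0 and featureCounts 1.6.4 are among the tools named for all assays together and without roles, per the submitters' processing notes. The sources used here do not state the build, annotation or strand setting. In FPKM, very abundant transcripts can shift every other value of a column. The members and all rules were chosen with earlier results of these data known. Differences are log2(cold + 1) minus log2(control + 1), with a floor of a mean of 1 FPKM. A limma fit was planned for the case of 1 column per library and was not run. The rule for named loci took the members, the most similar locus of each and their nearest neighbours. Without gene names, 3 of these other loci are given by identifier, and the locus most similar to AOX1d is given by its values only. The limits of 1.5-fold in level and 0.25 in distance, and the count of adjacent pairs, were added after the values had been seen. Pathway and leaf marker lists were not used because the RefSeq table of 39387 genes held 0 of the identifiers. Only the functions for differences, the floor and fold counts were run on simulated data, with 8-fold differences planted at stronger loci. The ranks, shares, neighbours and distances were not tested in this way. Python 3.11.15, numpy 2.4.6, pandas 2.3.3 and matplotlib 3.10.9 were used. The other 27 libraries were not used here.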

Additional observations from a re-analysis of the deposited data

How the results depend on the processing

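Of 79 values recomputed under 8 alternatives, 68 stayed within the limits set (0.5 for the log2 differences, 0.1 for the median of all loci, 1.5-fold for counts), 10 moved and 1 reversed. The direction of the 4 members was kept under each alternative, with log2 ranges of 3.45 to 4.15 for AOX1a, 2.89 to 4.16 for AOX1b, −2.08 to −1.40 for AOX1c and 0.92 to 3.52 for AOX1d. A pseudocount or filter cannot turn a direction, so the 3 scalings are the alternatives that bear on it. They moved the median of all loci by 0.04 (equal sums), 0.30 (median of ratios) and 0.17 (quantiles), and AOX1c was −1.58 at the highest of these. A pseudocount of 5 put AOX1d at 0.92, under the 2-fold limit, put AOX1b at 2.89, under the 8-fold limit, and left 1663 loci higher and 1618 lower. AOX1d was 3.27 with a pseudocount of 0.1 and 3.52 with none, the latter added after seeing the data. A mean of at least 5 FPKM left out AOX1d and left 2605 loci lower. Median-of-ratios scaling gave 2285 loci lower and a median of 0.03, which follows from centring the ratios, and quantile normalization gave a median of −0.10. With no filter the median was 0.00, as 22179 loci were listed at 0 in both columns. No paired analysis was possible because the table has no column per replicate, and for that reason no replicate was left out. Read numbers are unknown, so the counting error of AOX1d at 0.467 FPKM is too.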
